A study of Mus musculus with 8 samples.

Results

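The 32 genes described here encode enzymes of cholesterol and fatty acid synthesis and the proteins that regulate them. They were taken by symbol from a given list, out of 55421 gene identifiers in the count table. The list was chosen with earlier results of these data known. All 32 were found in the table and all 32 were among the 15137 genes with enough counts to be tested. They fall into 4 roles: 8 genes of the steps that lead through mevalonate to squalene, 10 genes of the steps from squalene to cholesterol, 6 genes of sterol regulatory element-binding protein (SREBP) control and sterol transport, and 8 genes of fatty acid synthesis and desaturation. Polyadenylated RNA of mouse embryonic stem cells was sequenced at its 3′ ends (QuantSeq). All groups are E14 cells of 129/Ola background, cultured in serum with LIF on gelatin, and each group has 2 biological duplicates. The groups are cells with a knockout of the miR-290-295 microRNA cluster (KO), wild-type cells (WT), KO cells transfected with a siPOOL against Tfap4 (siTfap4), and KO cells transfected with a negative control siPOOL (siNeg). A siPOOL is a pool of small interfering RNAs, and it was used at 5 nM for 36 hours. The labels give the KO and WT libraries one run prefix and the 4 siPOOL libraries another, so each comparison lies within a set. Within the KO and WT set the titles also end in tags whose meaning is not given: KO replicate 2 and WT replicate 1 share a tag, and the other 2 libraries have one each. KO is compared with WT and siTfap4 with siNeg, so no library is used in both comparisons. No WT cells received a siPOOL and in no group was the cluster put back, so its loss cannot be told apart from other differences between the KO and WT cells.

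Cells make cholesterol from acetyl-CoA through mevalonate, isoprenoid diphosphates, squalene and lanosterol, and they make saturated fatty acids from the same acetyl-CoA through malonyl-CoA. Both routes are controlled at the level of transcription by SREBPs. These are membrane-bound factors that SCAP escorts from the endoplasmic reticulum to the Golgi for cleavage when sterols are scarce, while INSIG proteins hold SCAP back when sterols are plentiful. SREBP-2 acts mainly on sterol genes and SREBP-1 mainly on fatty acid genes, and Insig1 is itself an SREBP target.

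Library totals lay between 8326675 and 12726123 counts, and levels are given as CPM, counts divided by the library's effective size with TMM factors. The deleted cluster's plus-strand entries held 0 counts in both KO libraries, 88 and 39 in the WT libraries and 0 in the 4 siPOOL libraries. Tfap4 stood at 49.0 and 42.1 CPM in KO against 19.7 and 16.4 CPM in WT cells, and at 12.4 and 15.8 CPM in siTfap4 against 34.4 and 37.4 CPM in siNeg cells. Duplicates differed by more than counting error, with a chi-square over its degrees of freedom of 11.3 in KO, 18.9 in WT, 30.5 in siTfap4 and 37.7 in siNeg. The 8 embryonic stem cell markers were all detected, and summed to 3475 and 3492 CPM in KO, 3336 and 3472 CPM in WT, 2366 and 2505 CPM in siTfap4, and 3445 and 3246 CPM in siNeg libraries. Primitive endoderm markers, of which 6 of 9 were called lower in KO than in WT cells, summed to 25.6 and 23.7 CPM in KO and 166 and 176 CPM in WT libraries. Of 7 fibroblast or feeder markers 2 passed the filter on low counts, both called lower in KO cells, and the list summed to 10 and 20 CPM in KO and 28.5 and 49.9 CPM in WT libraries, with Col3a1 and Postn at 0 in all libraries.

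The genes cover a wide range of levels. Group means ran from 1.44 CPM, for Srebf1 in siTfap4 cells, to 505 CPM, for Fasn in siTfap4 cells, and in KO cells from 4.14 CPM for Idi1 to 256 CPM for Scd2. Both siTfap4 libraries of Srebf1 stand below all its others, and within the KO and WT set Scd1 ran from 29.0 to 108 CPM and Insig1 from 16.3 to 53.6 CPM. With one read counted per 3′ end, CPM values are not divided by transcript length.

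**Figure D1:**
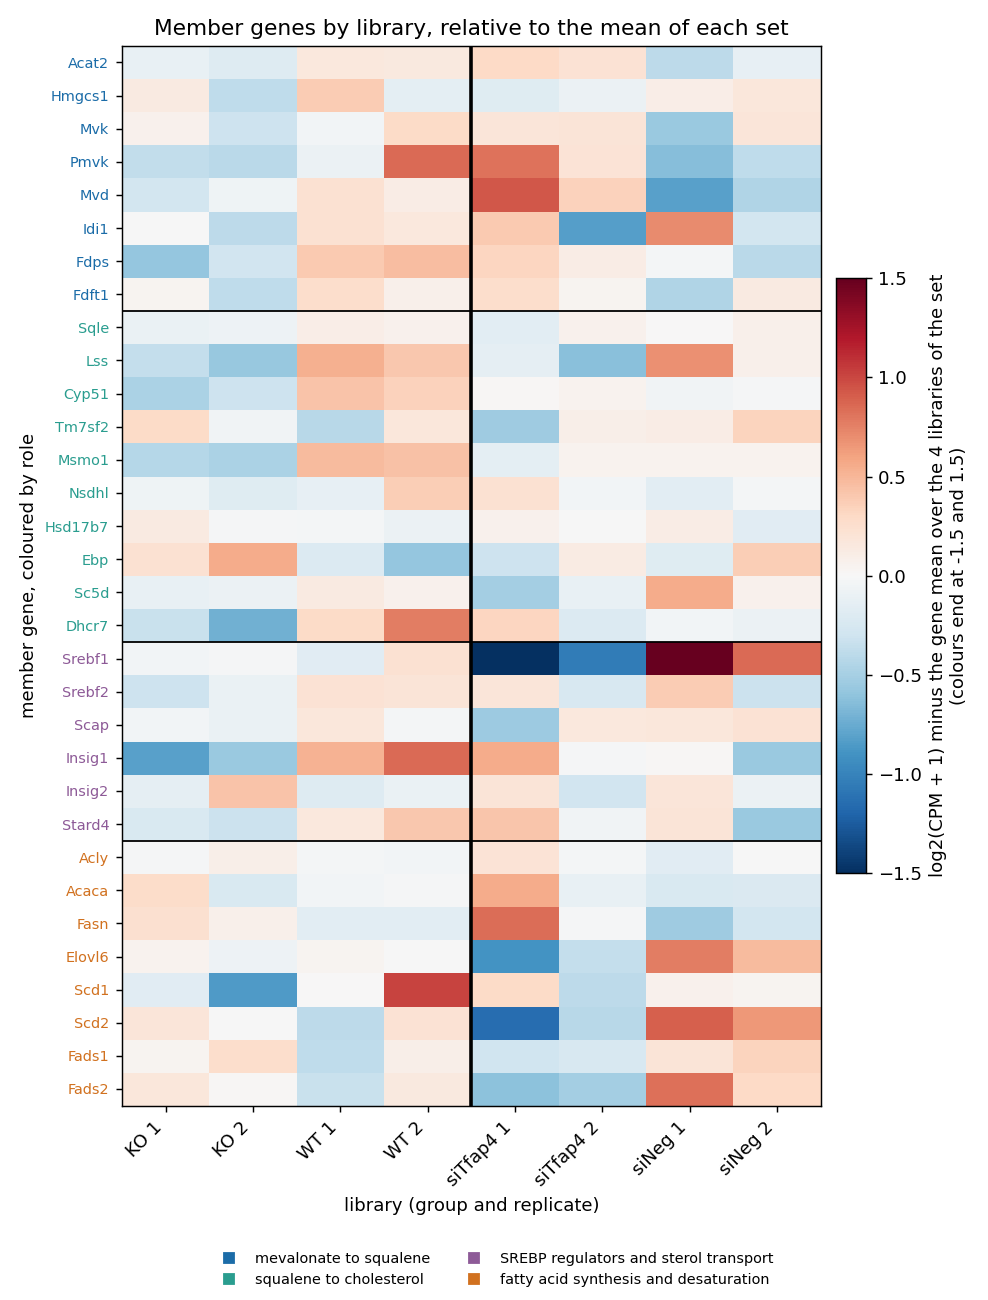
Each cell is the log2(CPM + 1) of a gene in a library minus that gene's mean over the 4 libraries of its set, with KO and WT libraries on the left of the thick line and siTfap4 and siNeg libraries on the right, and genes ordered by role. Insig1, Lss, Cyp51, Msmo1, Dhcr7 and Fdps are below the set mean in both KO libraries and above it in both WT libraries, and Srebf1, Elovl6, Scd2 and Fads2 are below it in both siTfap4 libraries and above it in both siNeg libraries.

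In KO against WT cells, 5 of the 18 genes of the sterol synthesis steps (Dhcr7, Lss, Msmo1, Fdps and Cyp51) and the sterol sensor gene Insig1 fell, by between 1.72-fold and 2.67-fold. No gene of the list passed the test as higher. By edgeR's quasi-likelihood test with Benjamini-Hochberg adjustment over all tested genes at 0.05, 6 of the 32 genes were called lower (18.8%) and 0 higher, where 9.95% of all tested genes were called, 3.96% as lower and 5.99% as higher. Of the 0 higher, 1 gene (Ebp) was higher at an unadjusted p below 0.05, and DESeq2 and limma-voom also called 0 higher. The median log2 fold change was -0.25 over the 32 genes and -0.01 over all tested genes. For 17 of the 32 genes (53.1%) both KO libraries were below both WT libraries, which held for 28.6% of all tested genes, and for 4 (12.5%) both were above, which held for 28.9%. These calls rest on all 4 libraries: 0 of the genes were called without KO replicate 1, 1 without KO replicate 2, 4 without WT replicate 1 and 0 without WT replicate 2, where 610, 681, 857 and 774 of all tested genes were called in place of 1506. Without KO replicate 1 and without WT replicate 2 the number lower at an unadjusted p below 0.05 was 6 in each case. Between the 2 libraries that share a title tag, KO replicate 2 and WT replicate 1, the level was lower in KO for 22 of the 32 genes (68.8%) and for 49.9% of all tested genes with counts in that WT library. The 6 called genes, whose KO and WT levels do not overlap, are necessarily lower in KO in this pair, so this is no separate check. Their log2 ratios of CPM in the pair ran from -1.14 for Lss to -0.70 for Fdps, and have no replicate. In bulk RNA, fewer cells of a type and less RNA per cell cannot be told apart, and the part of the lower endoderm markers of KO cells in these differences was not tested.

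Positions of genes are those of GENCODE M21 on GRCm38. All 8 genes of the mevalonate steps had a negative log2 fold change in KO against WT cells, between -0.89 and -0.24 with a median of -0.34, and all 8 were also negative with RLE factors, with DESeq2 size factors and with the correction for base composition described below. One was called. Fdps (ENSMUSG00000059743, chromosome 3, 89093588 to 89101959, minus strand), which encodes the synthase of farnesyl diphosphate, had 13.6 and 16.9 CPM in KO libraries and 27.5 and 29.1 CPM in WT libraries. The groups did not overlap, and the KO level was 1.85-fold lower (log2 fold change -0.89, SE 0.27, adjusted p = 0.0477 by edgeR). The call is not stable: its adjusted p was 0.368, 0.152, 0.132 and 0.175 without KO replicate 1, KO replicate 2, WT replicate 1 and WT replicate 2, 0.0553 in the legacy fit and 0.0673 without a filter on low counts. Fdps is also uncertain because 67.6% of the 31-base words in its last 200 bases occur in Gm43738 or Gm3571 as well, which held between 0 and 3 counts per library.

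The other genes of these steps did not pass the test. Pmvk, the kinase that phosphorylates phosphomevalonate, had 33.8 and 33.0 CPM in KO and 41.1 and 80.1 CPM in WT libraries. Its log2 fold change was -0.86 (SE 0.31, adjusted p = 0.0941 by edgeR), and WT replicate 2 set most of it, since it was -0.30 without that library. Hmgcs1, the HMG-CoA synthase that forms the precursor of mevalonate, had 241 and 168 CPM in KO and 285 and 198 CPM in WT libraries, and the groups overlapped (log2 fold change -0.24, SE 0.25). The remaining 5 were Acat2, an acetoacetyl-CoA thiolase (-0.30), the mevalonate kinase gene Mvk (-0.26), the decarboxylase gene Mvd (-0.35), the isomerase gene Idi1 (-0.45) and the squalene synthase gene Fdft1 (-0.34), with standard errors between 0.22 and 0.46.

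Of the 10 genes between squalene and cholesterol, 4 fell in KO cells and 0 rose. Msmo1 (ENSMUSG00000031604, chromosome 8, 64718139 to 64733792, minus strand), a methylsterol oxidase that removes methyl groups after lanosterol, had 113 and 109 CPM in KO libraries and 211 and 206 CPM in WT libraries. The duplicates lay close together and the groups were far apart, a 1.88-fold lower level in KO (log2 fold change -0.91, SE 0.22, adjusted p = 0.0130 by edgeR). Cyp51 (ENSMUSG00000001467, chromosome 5, 4081145 to 4104746, minus strand), the lanosterol demethylase, had 62.4 and 69.9 CPM in KO and 117 and 111 CPM in WT libraries. Its level in KO was 1.72-fold lower (log2 fold change -0.79, SE 0.22, adjusted p = 0.0324 by edgeR). Akap9 overlaps the 3′ end of Cyp51 on the other strand, and whether the counting used strand is not given in the sources used here. Akap9 stood the other way round, with a log2 fold change of 0.76 (SE 0.25, adjusted p = 0.0701 by edgeR).

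Lss (ENSMUSG00000033105, chromosome 10, 76531588 to 76557138, plus strand), the synthase that closes the rings of lanosterol, had 24.9 and 21.4 CPM in KO and 47.2 and 42.9 CPM in WT libraries, 1.94-fold lower in KO (log2 fold change -0.96, SE 0.28, adjusted p = 0.0401 by edgeR). Dhcr7 (ENSMUSG00000058454, chromosome 7, 143823145 to 143848410, plus strand), the reductase of the last step to cholesterol, had 19.3 and 14.5 CPM in KO and 30.3 and 42.7 CPM in WT libraries. Neither gene overlapped between groups, and Dhcr7 was 2.15-fold lower in KO (log2 fold change -1.11, SE 0.29, adjusted p = 0.0222 by edgeR). Each call of this role was lost when some single library was left out. Leaving out KO replicate 1, KO replicate 2, WT replicate 1 or WT replicate 2 gave adjusted p-values of 0.130, 0.153, 0.0756 and 0.0626 for Msmo1, of 0.301, 0.171, 0.149 and 0.107 for Cyp51, of 0.160, 0.283, 0.167 and 0.102 for Lss, and of 0.0739, 0.237, 0.0269 and 0.186 for Dhcr7. The log2 fold changes themselves lay between -0.94 and -0.89 for Msmo1 and between -1.33 and -0.84 for Dhcr7 in these fits. Cyp51 also lost its call without a filter on low counts (adjusted p = 0.0546) and Lss in the legacy fit (0.0502).

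Ebp, the sterol isomerase, went the other way, with 65.3 and 82.5 CPM in KO and 48.1 and 37.0 CPM in WT libraries. Its groups did not overlap, but the log2 fold change of 0.79 (SE 0.27) had an adjusted p of 0.0778 by edgeR. It was called higher with the 4 untreated libraries fitted on their own (adjusted p = 0.0300). The other 5 genes had smaller differences. Sqle, the squalene epoxidase, had 98.3 and 99.9 CPM in KO and 113 and 110 CPM in WT libraries (log2 fold change -0.17, SE 0.22). The log2 fold change was 0.26 for the sterol reductase gene Tm7sf2, 0.13 for the ketosteroid reductase gene Hsd17b7, -0.26 for the sterol dehydrogenase gene Nsdhl and -0.20 for the sterol desaturase gene Sc5d, with standard errors from 0.26 to 0.36.

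Insig1 (ENSMUSG00000045294, chromosome 5, 28071363 to 28078662, plus strand) had the largest fall of the 32 genes in KO against WT cells. It had 16.3 and 19.7 CPM in KO libraries and 42.5 and 53.6 CPM in WT libraries. The highest KO library was below the lowest WT library, and the KO level was 2.67-fold lower (log2 fold change -1.42, SE 0.29, adjusted p = 0.00576 by edgeR). Without KO replicate 1 the adjusted p was 0.0899 and without WT replicate 2 it was 0.0530, with log2 fold changes between -1.57 and -1.24 over the 4 leave-outs. The related Insig2 had 19.7 and 29.4 CPM in KO and 18.9 and 20.1 CPM in WT libraries, and its groups overlapped (log2 fold change 0.33, SE 0.29). The SREBP genes themselves did not pass the test. Srebf2 had 104 and 121 CPM in KO and 151 and 148 CPM in WT libraries (log2 fold change -0.41, SE 0.26, adjusted p = 0.373 by edgeR), and Srebf1 had 32.5 and 33.0 CPM in KO and 29.7 and 39.3 CPM in WT libraries (-0.07, SE 0.38). Rai1, which overlaps Srebf1 on the other strand, was called higher in KO cells (log2 fold change 1.23, SE 0.29, adjusted p = 0.0127 by edgeR), and without a known strand setting reads of the pair cannot be told apart. The escort gene Scap had a log2 fold change of -0.15 and Stard4, which encodes a cytosolic sterol carrier, of -0.57 (SE 0.28). Stard4 had 37.6 and 35.1 CPM in KO and 49.4 and 58.7 CPM in WT libraries.

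**Figure D2:**
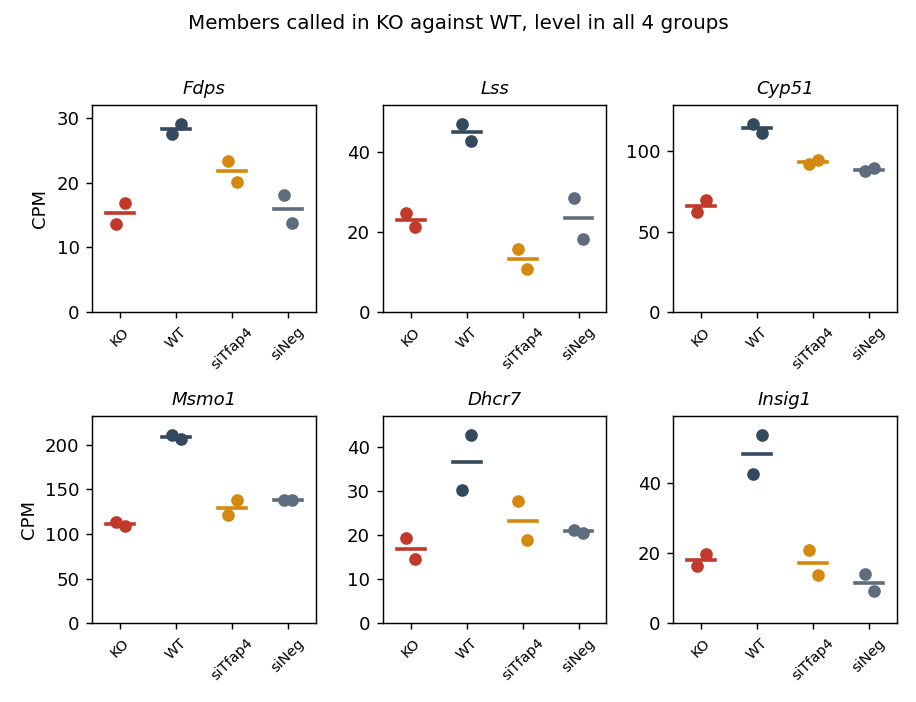
Levels in CPM of the 6 genes called in KO against WT cells, with 1 point per library and a line at the mean of each group of 2. Every KO point lies below every WT point in each panel, with Insig1 at 16.3 and 19.7 CPM in KO and 42.5 and 53.6 CPM in WT libraries.

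Fatty acid genes showed no call in KO against WT cells, 0 of 8 in edgeR and limma-voom, with 1 of 8 (Scd1) at an unadjusted p below 0.05 and 1 called in DESeq2. Scd1, a stearoyl-CoA desaturase that makes monounsaturated fatty acids, had the largest difference, with 47.3 and 29.0 CPM in KO and 53.6 and 108 CPM in WT libraries. WT replicate 2 was well above the other 3 libraries, and the log2 fold change of -1.08 (SE 0.34, adjusted p = 0.0547 by edgeR) was -0.49 without it. The adjusted p of Scd1 was 0.0303 in DESeq2 and 0.0488 with RLE factors. The fatty acid synthase gene Fasn had 223 and 199 CPM in KO and 168 and 168 CPM in WT libraries (log2 fold change 0.33, SE 0.26), and the groups did not overlap. The other 6 genes, Acly and Acaca for the supply of acetyl-CoA and malonyl-CoA, the elongase gene Elovl6, and the desaturase genes Scd2, Fads1 and Fads2, had log2 fold changes between -0.03 and 0.29. The median of the role was 0.11, against -0.34 for the mevalonate steps and -0.23 for the steps from squalene to cholesterol. The difference between the roles was not tested.

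Promoter windows are shown because SREBPs act with the CCAAT-binding factor NF-Y. The RefSeq table of 300-base windows, from 250 bases before to 50 bases after each annotated start in GRCm38.p6, held 25 of the 32 genes, and the other 7 were Fdps, Fdft1, Sqle, Stard4, Scd1, Scd2 and Fads1. Windows were searched on both strands for CCAAT, for TCACNCCAC as a form of the sterol regulatory element, and for CAGCTG, an E-box that TFAP4 binds. The windows of the 3 genes with the smallest adjusted p in KO against WT cells that had 1 window each are shown, with that of Hmgcs1, which did not pass the test and is shown because it alone of the list holds the sterol regulatory element form. They are given 5′ to 3′ in the direction of the gene with all matches, on either strand, in capitals. No matches overlap in them.
Insig1, chr5:28071162-28071461, plus strand: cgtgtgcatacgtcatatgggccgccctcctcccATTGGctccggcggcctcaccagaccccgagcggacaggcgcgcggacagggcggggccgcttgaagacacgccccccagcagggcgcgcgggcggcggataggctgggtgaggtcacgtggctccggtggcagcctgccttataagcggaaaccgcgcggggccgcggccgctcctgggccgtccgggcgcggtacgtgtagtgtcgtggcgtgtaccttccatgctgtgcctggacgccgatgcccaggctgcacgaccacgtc
Msmo1, chr8:64733529-64733828, minus strand: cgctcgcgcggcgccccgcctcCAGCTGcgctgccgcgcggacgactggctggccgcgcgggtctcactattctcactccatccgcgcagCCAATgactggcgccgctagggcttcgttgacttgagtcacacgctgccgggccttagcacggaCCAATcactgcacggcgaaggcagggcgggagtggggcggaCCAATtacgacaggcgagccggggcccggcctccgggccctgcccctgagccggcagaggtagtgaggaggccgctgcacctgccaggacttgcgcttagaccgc
Cyp51, chr5:4104648-4104947, minus strand: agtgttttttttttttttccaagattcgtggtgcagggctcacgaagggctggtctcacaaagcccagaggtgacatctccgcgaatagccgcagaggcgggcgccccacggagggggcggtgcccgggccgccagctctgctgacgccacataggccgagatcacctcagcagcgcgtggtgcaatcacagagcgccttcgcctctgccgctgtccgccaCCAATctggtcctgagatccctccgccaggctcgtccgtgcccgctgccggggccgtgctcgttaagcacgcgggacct
Hmgcs1, chr13:119690101-119690400, plus strand: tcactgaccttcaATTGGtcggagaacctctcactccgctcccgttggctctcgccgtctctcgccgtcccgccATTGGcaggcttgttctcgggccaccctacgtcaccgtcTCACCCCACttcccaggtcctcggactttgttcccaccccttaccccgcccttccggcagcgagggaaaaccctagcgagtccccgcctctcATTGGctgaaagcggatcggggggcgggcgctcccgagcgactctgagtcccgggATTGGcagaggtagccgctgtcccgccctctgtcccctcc

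CCAAT occurred in the windows of 20 of the 25 genes (80.0%), including all 5 of those called lower in KO that had a window, and in 43.2% of the 10552 tested genes with a window. In the sterol steps 14 of 15 genes had it, and in the fatty acid role 2 of 5. The sterol regulatory element form occurred in 1 of the 25, Hmgcs1, at 137 bases before the start, and in 1.42% of tested genes. The E-box occurred in 4 of 25 (16.0%), Msmo1, Dhcr7, Idi1 and Insig2, and in 18.3% of tested genes. Of these, Msmo1 and Dhcr7 were called lower in KO cells, and in Dhcr7 it lay in a window without CCAAT. It occurred in 0 of the 3 genes with a window that were called lower in siTfap4 cells, a comparison given below, and in 0 of the 3 called higher. A match is a stretch of letters and no measure of binding.

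The deleted cluster was then set against the 3′ untranslated regions of the list. The search of RefSeq returned 6 mature 3p microRNAs of the cluster and none named miR-292, while the count table has 7 plus-strand entries of it. The 6 may therefore not be all of its 3p microRNAs. Of these 6, 5 hold AAGUGC at bases 2 to 7, so they share most of their seed, and miR-293-3p does not. They lie on the plus strand of chromosome 7 between 3218674 and 3220837 (RefSeq, GRCm38.p6) and are shown with the seed, bases 2 to 8, in capitals.
miR-290a-3p: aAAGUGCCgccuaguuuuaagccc
miR-291a-3p: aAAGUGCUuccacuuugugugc
miR-291b-3p: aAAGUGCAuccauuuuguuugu
miR-293-3p: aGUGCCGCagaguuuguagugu
miR-294-3p: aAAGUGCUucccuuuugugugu
miR-295-3p: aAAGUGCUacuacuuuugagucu

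The sites sought were AGCACTT, which pairs with bases 2 to 8 of miR-291a-3p, miR-294-3p and miR-295-3p, and GCACTTA, which pairs with the shared AAGUGC. Matches to bases 2 to 8 of miR-290a-3p and miR-291b-3p, and sites of miR-293-3p, were not sought. The counts therefore cover only part of the cluster's possible sites. The 2 sites sought were found in the longest annotated 3′ untranslated region of 5 of the 32 genes (15.6%), against 2767 of 12786 tested genes (21.6%). They were found in 0 of the 6 genes called lower in KO cells. MicroRNA sites usually lower a transcript, so a rise in KO cells is the direction a direct site would give. The log2 fold change in KO against WT cells was -0.86 for Pmvk, -0.57 for Stard4, -0.03 for Elovl6, 0.13 for Hsd17b7 and 0.18 for Fads2, and none of the 5 passed the test. The sites of Pmvk, Hsd17b7, Elovl6 and Fads2 are shown within 30 bases of the transcript, with the match in capitals.
Pmvk: gcctctttaggGCACTTAtagggcaaaggc
Hsd17b7: gagatggctcAGCACTTAagagccccgagt
Elovl6: atgcttccaaAGCACTTtagtctcagtgtt
Fads2: caatctagccAGCACTTggcttctttttgg

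The comparison of siTfap4 with siNeg in KO cells asks what follows when the raised Tfap4 of KO cells is brought down. It split the list. Srebf1 and 3 fatty acid genes, Scd2, Elovl6 and Fads2, fell in siTfap4 cells, while Mvd, Pmvk and Fasn rose. By edgeR's quasi-likelihood test 4 of the 32 genes were called lower (12.5%) and 3 higher (9.38%), where 15.4% of all tested genes were called, 11.1% as lower and 4.36% as higher. The share called lower is therefore near that of all genes. The median log2 fold change was -0.08 over the 32 genes and 0.01 over all tested genes. Both siTfap4 libraries were below both siNeg libraries for 10 genes (31.2%), against 29.3% of all tested genes, and above them for 7 (21.9%), against 28.9%. The count called was 2 without siTfap4 replicate 1, 7 without siTfap4 replicate 2, 3 without siNeg replicate 1 and 6 without siNeg replicate 2, where 499, 2987, 732 and 1978 of all tested genes were called in place of 2334. Without siTfap4 replicate 1 or siNeg replicate 1 no gene of the list was called higher, with 1 and 5 higher at an unadjusted p below 0.05. The embryonic stem cell markers Nanog (79.8 and 179 CPM in siTfap4, 412 and 316 CPM in siNeg) and Dppa5a (3.82 and 9.32 CPM in siTfap4, 387 and 493 CPM in siNeg) fell in the same libraries and Pou5f1 rose, and their part in these differences was not tested.

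Srebf1 (ENSMUSG00000020538, chromosome 11, 60199089 to 60222581, minus strand), which encodes SREBP-1, had the largest change of the list. It had 0.637 and 2.24 CPM in siTfap4 libraries, from 5 and 19 counts, and 30.3 and 11 CPM in siNeg libraries, from 354 and 114 counts. Both siTfap4 libraries were below every other library, and the siNeg duplicates themselves differed by more than the KO duplicates. The level was 14.1-fold lower in siTfap4 (log2 fold change -3.82, SE 0.55, adjusted p = 0.000410 by edgeR), and the call held without any 1 of the 8 libraries, with the log2 fold change between -5.01 and -2.90 over the 4 siPOOL leave-outs. The overlapping Rai1 had a log2 fold change of -0.57 (SE 0.30, adjusted p = 0.216 by edgeR). The other 5 genes of this role were not called. Srebf2 had 104 and 77.8 CPM in siTfap4 and 120 and 73.4 CPM in siNeg libraries (log2 fold change -0.08, SE 0.26). Insig1 had 20.8 and 13.7 CPM in siTfap4 and 14.0 and 9.10 CPM in siNeg libraries, overlapping ranges with a log2 fold change of 0.57 (SE 0.32, adjusted p = 0.233 by edgeR). Those of Scap, Insig2 and Stard4 were -0.35, -0.09 and 0.34.

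Of the 8 fatty acid genes 3 fell and 1 rose in siTfap4 cells. Scd2 (ENSMUSG00000025203, chromosome 19, 44293674 to 44306864, plus strand), a stearoyl-CoA desaturase, had 72.0 and 119 CPM in siTfap4 and 299 and 252 CPM in siNeg libraries. Its groups were far apart, the level was 2.89-fold lower (log2 fold change -1.53, SE 0.28, adjusted p = 0.00179 by edgeR), and the call held without any 1 library. Elovl6 (ENSMUSG00000041220, chromosome 3, 129532355 to 129638495, plus strand), which elongates palmitate to stearate, had 75.4 and 110 CPM in siTfap4 and 241 and 197 CPM in siNeg libraries. It was 2.36-fold lower (log2 fold change -1.24, SE 0.24, adjusted p = 0.00312 by edgeR), and its adjusted p was 0.0508 without siTfap4 replicate 1. Fads2 (ENSMUSG00000024665, chromosome 19, 10062765 to 10101746, minus strand), the desaturase that begins the synthesis of long polyunsaturated fatty acids, had 28.5 and 30.7 CPM in siTfap4 and 79.4 and 54.4 CPM in siNeg libraries. It was 2.26-fold lower (log2 fold change -1.18, SE 0.27, adjusted p = 0.00842 by edgeR), with an adjusted p of 0.0888 without siTfap4 replicate 1 and of 0.104 without siNeg replicate 1.

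Fasn (ENSMUSG00000025153, chromosome 11, 120805846 to 120824547, minus strand) stood apart from these, with 652 and 359 CPM in siTfap4 and 251 and 300 CPM in siNeg libraries. Most of the difference came from siTfap4 replicate 1, and the log2 fold change of 0.88 (SE 0.27, adjusted p = 0.0351 by edgeR) was 0.38 (adjusted p = 0.431) without that library. The adjusted p of Fasn was also 0.209 and 0.0660 without siNeg replicate 1 and 2, 0.0574 and 0.0577 without KO replicate 1 and 2, which share the estimate of the spread, and 0.0811 in the 4 siPOOL libraries alone. Of the paralogs of the called desaturase genes neither passed the test. Scd1, 87.6 kb from Scd2 on chromosome 19, had 58.5 and 36.2 CPM in siTfap4 and 50.3 and 49.4 CPM in siNeg libraries (log2 fold change -0.08, SE 0.34). Fads1, 81.1 kb from Fads2 on the same chromosome, had 51.1 and 53.2 CPM in siTfap4 and 72.1 and 79.7 CPM in siNeg libraries, which did not overlap, and a log2 fold change of -0.54 (SE 0.25, adjusted p = 0.146 by edgeR). Whether the members of a pair differ was not tested. The log2 fold change was 0.18 for Acly and 0.49 for Acaca (adjusted p = 0.604 and 0.238 by edgeR).

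In the mevalonate steps 2 of 8 genes rose in siTfap4 cells. Mvd (ENSMUSG00000006517, chromosome 8, 122433601 to 122443422, minus strand) had 127 and 84.3 CPM in siTfap4 and 37.3 and 48.1 CPM in siNeg libraries, a 2.47-fold higher level (log2 fold change 1.30, SE 0.26, adjusted p = 0.00368 by edgeR). Pmvk (ENSMUSG00000027952, chromosome 3, 89454541 to 89469013, plus strand) had 91.7 and 59.6 CPM in siTfap4 and 33.0 and 39.5 CPM in siNeg libraries, 2.09-fold higher (log2 fold change 1.06, SE 0.31, adjusted p = 0.0295 by edgeR). In both, siTfap4 replicate 1 was the highest of all 8 libraries. The adjusted p of Mvd was 0.0653 without siTfap4 replicate 1 and 0.0626 without siNeg replicate 1, and that of Pmvk was 0.309 and 0.207 without these libraries and 0.0753 without siNeg replicate 2. The other 6 ran from -0.66 for Idi1, which had at most 3.26 CPM in these libraries, to 0.52 for Acat2. None of the 10 genes from squalene to cholesterol was called by edgeR, DESeq2 or limma-voom, and 2 of them, Lss and Sc5d, were lower at an unadjusted p below 0.05. Lss had 15.8 and 10.9 CPM in siTfap4 and 28.7 and 18.4 CPM in siNeg libraries (log2 fold change -0.83, SE 0.30, adjusted p = 0.0734 by edgeR). Msmo1 had 121 and 138 CPM in siTfap4 and 138 and 138 CPM in siNeg libraries, and Cyp51 had 92.0 and 94.1 CPM in siTfap4 and 87.4 and 89.3 CPM in siNeg libraries.

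**Figure D3:**
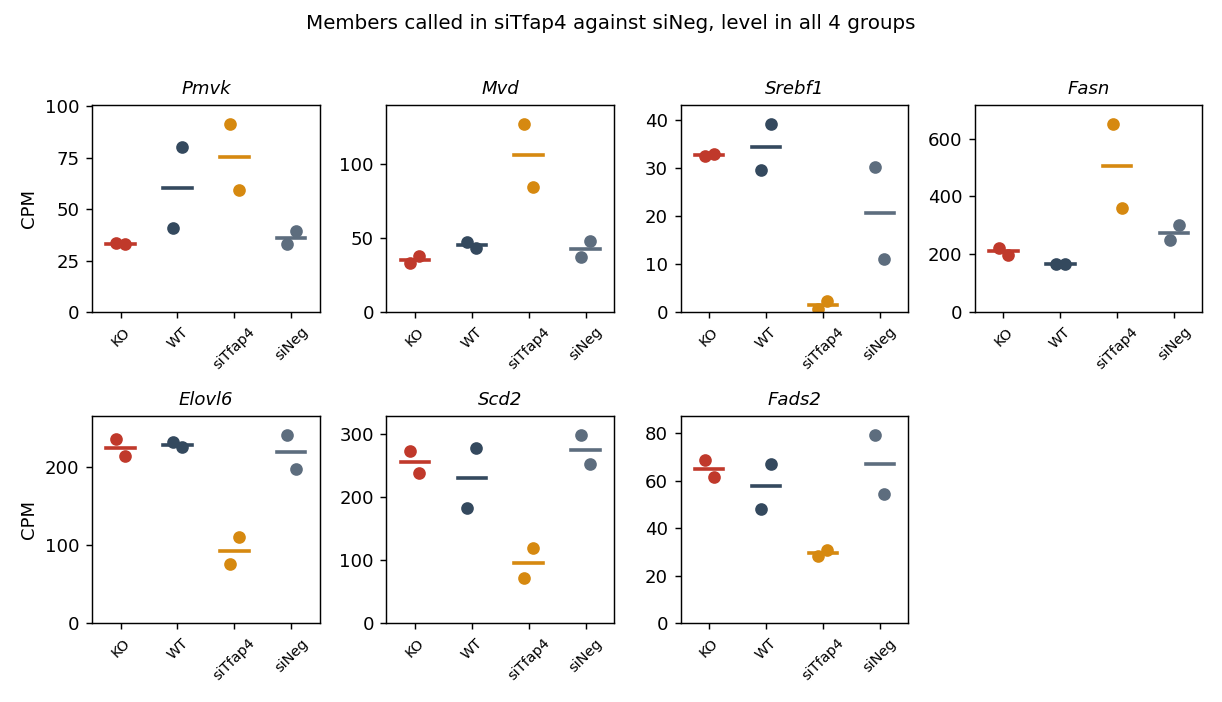
Levels in CPM of the 7 genes called in siTfap4 against siNeg cells, with 1 point per library and a line at the mean of each group of 2, and with KO and WT cells beside them. Srebf1, Elovl6, Scd2 and Fads2 have both siTfap4 points below every other point, and Fasn has siTfap4 points of 652 and 359 CPM, far apart from each other.

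Base composition of the 3′ end moved with the siPOOL comparison. Over all tested genes the median log2 fold change of siTfap4 against siNeg was -0.53 where the last 100 bases of the transcript were below 25% GC and 0.52 where they were at 60% or above, while in KO against WT it lay between -0.08 and 0.02 in every class of GC. The 4 genes called lower in siTfap4 had 22% to 36% GC there with a median of 27%, and the 3 called higher had 38% to 57% with a median of 53%, against a median of 37% for all tested genes. With a correction for this trend Srebf1 kept a log2 fold change of -3.29 (adjusted p = 0.000775), Scd2 of -1.11 (0.0116), Fads2 of -1.08 (0.0135), Mvd of 0.88 (0.0237) and Fasn of 0.88 (0.0414). Elovl6, at 22% GC, then had -0.69 (adjusted p = 0.0526), and Pmvk, at 53%, had 0.67 (0.130). Stard4 was called higher with the correction (0.89, adjusted p = 0.0380). The 6 calls in KO against WT held with it, with log2 fold changes from -1.48 for Insig1 to -0.83 for Cyp51. 

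**Figure D4:**
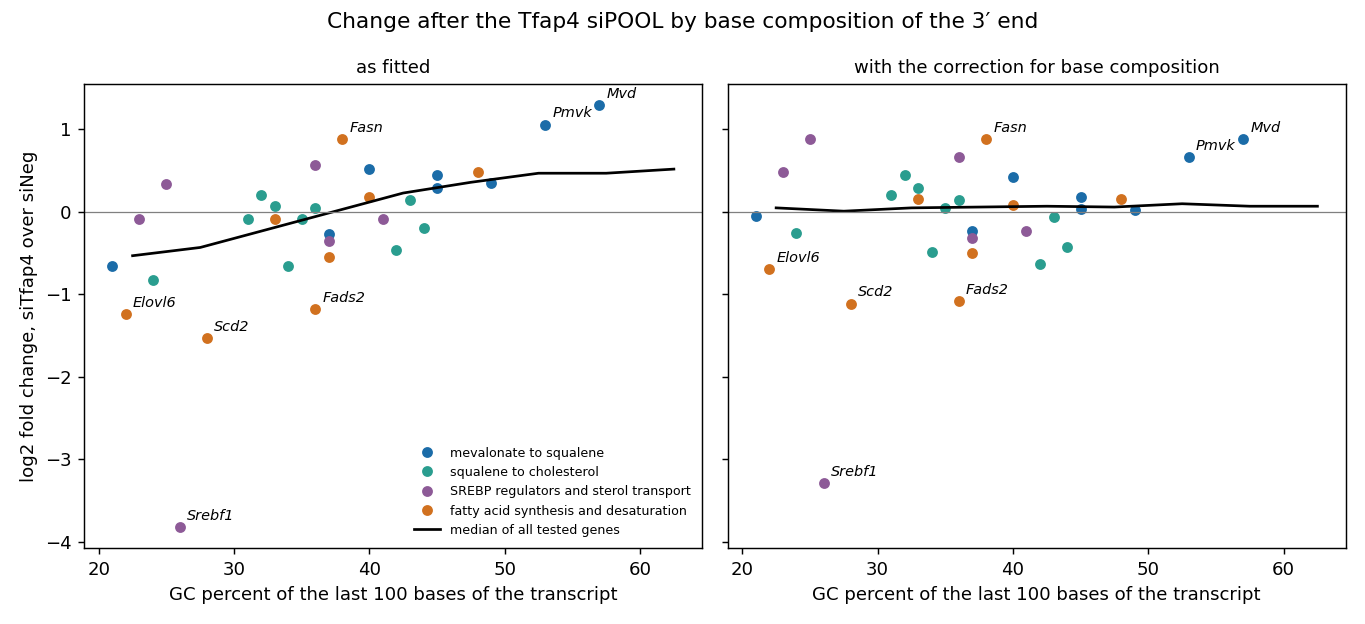
The log2 fold change of siTfap4 over siNeg for each of the 32 genes against the GC percent of the last 100 bases of its transcript, before (left) and after (right) the correction for base composition, with the line at the median of all tested genes in each class of GC. The line rises from -0.53 to 0.52 on the left and lies between 0.01 and 0.10 on the right, where Srebf1 remains at -3.29.

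Whether a gene changed differently in the siPOOL comparison and in the KO comparison was tested directly. For 9 of the 32 genes (28.1%) the log2 fold change of siTfap4 over siNeg differed from that of KO over WT by edgeR's quasi-likelihood test, where 15.9% of all tested genes did. The share with a lower value in the siPOOL comparison, 12.5%, was near the 11.3% of all tested genes. The share with a higher value there was 15.6%, against 4.6% of all tested genes. Higher there were Insig1 (difference 1.99, SE 0.43, adjusted p = 0.00624), Pmvk (1.92, SE 0.44, 0.00824), Mvd (1.65, SE 0.37, 0.00744), Fdps (1.34, SE 0.39, 0.0292) and Dhcr7 (1.26, SE 0.41, 0.0476). Of these, Insig1, Fdps and Dhcr7 were not called in siTfap4 against siNeg (log2 fold changes 0.57, 0.45 and 0.15). Their differences rest mostly on the falls already given for KO against WT (-1.42, -0.89 and -1.11), so this share is not separate from those calls. Lower there were Srebf1 (-3.75, SE 0.68, adjusted p = 0.00234), Scd2 (-1.68, SE 0.39, 0.00894), Fads2 (-1.36, SE 0.37, 0.0222) and Elovl6 (-1.21, SE 0.34, 0.0241). The differences of Insig1, Mvd, Srebf1 and Scd2 held without any 1 of the 8 libraries. Over the same leave-outs the largest adjusted p was 0.0551 for Pmvk, 0.149 for Fdps, 0.196 for Dhcr7, 0.0976 for Fads2 and 0.110 for Elovl6, and with the correction for base composition those of Fdps (0.0643), Dhcr7 (0.0790) and Elovl6 (0.151) were lost and those of Cyp51 (adjusted p = 0.0216), Msmo1 (0.0163), Stard4 (0.0159) and Ebp (0.0443) were called. No gene of the list was called in both comparisons. The share of all tested genes called in both is not given here, so this is not read as a trait of the list.

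**Figure D5:**
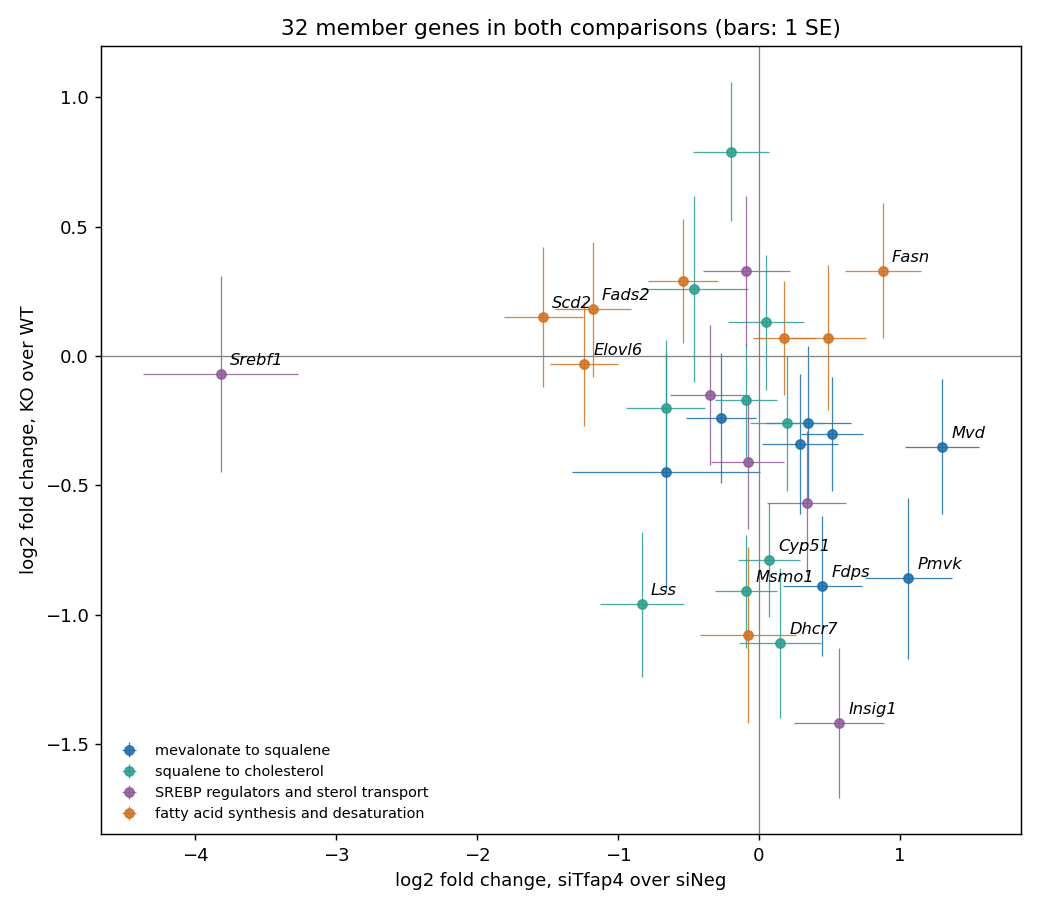
The log2 fold change of siTfap4 over siNeg on the x axis and of KO over WT on the y axis for each of the 32 genes, coloured by role, with bars of 1 standard error and names for the genes called in at least one of the tests. The 6 genes called in KO lie low on the y axis and between -0.83 and 0.57 on the x axis, and Srebf1, Scd2, Elovl6 and Fads2 lie left on the x axis and between -0.07 and 0.18 on the y axis.

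Both siPOOL groups are KO cells, and their levels are given beside the untreated KO cells without a test because the untreated libraries belong to the other set. Insig1 had 20.8 and 13.7 CPM in siTfap4, 14.0 and 9.10 CPM in siNeg and 16.3 and 19.7 CPM in untreated KO libraries, all below the 42.5 and 53.6 CPM of WT cells. Dhcr7 was likewise lower in all 6 libraries of KO cells, at 14.5 to 27.6 CPM, than in either WT library. Cyp51 and Msmo1 were at 62.4 to 94.1 CPM and at 109 to 138 CPM in the 6 libraries of KO cells, also below both WT libraries. These 4 genes were called lower in KO than in the same WT libraries, so their untreated KO levels are no separate check. The share of all tested genes with this order is not given here. Srebf1 had 11 CPM in siNeg replicate 2, against 30.3 CPM in siNeg replicate 1 and 32.5 and 33.0 CPM in untreated KO cells.

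A further 65 genes around these pathways, 64 of them tested, were read in the same fits. In KO against WT cells 1 of the 64 was called lower and 3 higher, where 3.96% and 5.99% of all tested genes were. None of the 11 genes of SREBP cleavage and sterol-regulated degradation (1 higher at an unadjusted p below 0.05) and none of the 11 of the isoprenoid branches (1 higher) was called by edgeR. The protease gene Mbtps1, which makes the first cut of SREBPs, and Ubxn4, which acts in degradation at the endoplasmic reticulum, had log2 fold changes of 0.08 and 0.51 (adjusted p = 0.875 and 0.164 by edgeR), and the farnesyltransferase subunit genes Fnta and Fntb of 0.28 and 0.71 (0.629 and 0.0606). The lipoprotein receptor gene Vldlr rose, with 63.7 and 53.2 CPM in KO and 6.10 and 11.4 CPM in WT libraries, 6.72-fold higher (log2 fold change 2.75, SE 0.35, adjusted p = 0.000131 by edgeR), and the call held without any 1 library. Mid1ip1, whose protein promotes acetyl-CoA carboxylase polymerisation, had 111 and 92.7 CPM in KO and 27.2 and 37.3 CPM in WT libraries (log2 fold change 1.66, adjusted p = 0.00483 by edgeR). Its adjusted p was 0.0577 without WT replicate 1. The acyl-CoA synthetase gene Acsl5 rose (1.24, adjusted p = 0.00962; 0.0937 without KO replicate 1 and 0.0907 without WT replicate 1). The phosphatidate phosphatase gene Lpin1 fell (-0.98, adjusted p = 0.0329; 0.0618 to 0.239 without any 1 of the 4 libraries).

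In siTfap4 against siNeg cells 13 of these 64 genes were lower (20.3%) and 4 higher (6.25%), where 11.1% of all tested genes were lower and 4.36% higher. Of the 11 genes of SREBP cleavage and sterol-regulated degradation 3 fell. Ube2g2, a ubiquitin-conjugating enzyme of degradation at the endoplasmic reticulum, had 2.68 and 5.78 CPM in siTfap4 and 23.2 and 27.4 CPM in siNeg libraries (log2 fold change -2.57, SE 0.37, adjusted p = 0.000280 by edgeR), a call that held without any 1 library. Erlin1, which acts in the same degradation, had 3.06 and 2.83 CPM in siTfap4 and 11.9 and 9.78 CPM in siNeg libraries (-1.88, adjusted p = 0.00369; 0.0529 without siTfap4 replicate 1). Mbtps2, the protease that makes the second cut of SREBPs, was lower by a log2 fold change of -0.93 (adjusted p = 0.0405), a call lost without siTfap4 replicate 1 (0.321), siNeg replicate 1 (0.156), siNeg replicate 2 (0.0822), KO replicate 1 (0.0670) or KO replicate 2 (0.0663), in the 4 siPOOL libraries alone (0.0652) and with the correction for base composition (-0.44, 0.314). The cholesterol exporter genes Abca1 (-1.16, adjusted p = 0.0420) and Abcg1 (-1.75, 0.0212) fell, and lost their calls without siTfap4 replicate 1 (0.181 and 0.242) or siNeg replicate 1 (0.410 and 0.357). Without siNeg replicate 1 the log2 fold change was -0.58 for Abca1 and -0.75 for Abcg1. Abca1 also lost its call without siTfap4 replicate 2 (0.150), KO replicate 1 (0.0509) or KO replicate 2 (0.0519) and with the correction for base composition (-0.79, 0.149), and both lost it in limma-voom (0.0703 for Abca1 and 0.0550 for Abcg1). Among the isoprenoid branches Nus1, a subunit of the enzyme that makes dolichol precursors, had 9.17 and 15.9 CPM in siTfap4 and 60.5 and 44.4 CPM in siNeg libraries (-2.06, SE 0.34, adjusted p = 0.000799), which held without any 1 library.

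In the list of fatty acid supply, elongation and activation, 6 of 25 tested genes fell in siTfap4 cells and 4 rose, against the same 11.1% and 4.36% of all tested genes, and Fads3 was too low to be tested. Hacd2, a dehydratase of fatty acid elongation, had 2.68 and 4.84 CPM in siTfap4 and 45.1 and 10.1 CPM in siNeg libraries (log2 fold change -2.87, SE 0.62, adjusted p = 0.00998 by edgeR), with an adjusted p of 0.173 without siTfap4 replicate 1 and of 0.168 without a filter on low counts. siNeg replicate 1 carried much of it, since without that library the log2 fold change was -1.41 (adjusted p = 0.0853). Mid1ip1 fell to 22.6 and 56.4 CPM in siTfap4, against 101 and 102 CPM in siNeg libraries (-1.36, SE 0.33, adjusted p = 0.0127; 0.134, 0.0852 and 0.0513 without siTfap4 replicate 1, siNeg replicate 1 and siNeg replicate 2), and the call was lost with the correction for base composition (-0.96, 0.0528). Of the 64 genes 2 were called in both comparisons, Mid1ip1 as higher in KO and lower in siTfap4 cells, and Lpin1 as lower in both. For this count too the share of all tested genes is not given here. Lpin1, named here after its values were seen, had 13.9 and 12.1 CPM in siTfap4 and 36.1 and 22.2 CPM in siNeg libraries (-1.17, adjusted p = 0.0152 by edgeR; 0.0928, 0.0578 and 0.171 without siTfap4 replicate 1, siTfap4 replicate 2 and siNeg replicate 1). Acsl4, an acyl-CoA synthetase of polyunsaturated fatty acids, fell (-1.24, adjusted p = 0.0235; 0.254 without siTfap4 replicate 1, 0.211 without siNeg replicate 1 and, with the correction for base composition, -0.82 and 0.0894). Oxsm, a mitochondrial fatty acid synthesis enzyme, had 1.02 and 0.944 CPM in siTfap4 and 4.97 and 2.42 CPM in siNeg libraries (-1.92, adjusted p = 0.0363), and its call was lost without siTfap4 replicate 1 (0.225), siTfap4 replicate 2 (0.123) or siNeg replicate 1 (0.289), in limma-voom (0.0695) and with the correction for base composition (-1.31, 0.133). Its last 100 bases hold 19% GC.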

How the data were processed

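The count table was used as deposited by the authors. It holds raw counts per gene for 8 libraries. Per the submitters' processing notes, reads were trimmed with Trim Galore and the build was GRCm38; which aligner, counter, strand option and annotation were used is not given in the sources used here. Identifiers were given symbols from GENCODE M21 (267 had none). Genes were filtered with filterByExpr, scaled with TMM factors and fitted in edgeR 4.0.16 (R 4.3.3) with a robust quasi-likelihood model of 4 group means over all 8 libraries (4 residual degrees of freedom). Benjamini-Hochberg adjustment was over all 15137 tested genes, at a threshold of 0.05. On simulated data with 200 changed genes, 24% of 2-fold and 81% of 4-fold changes were recovered for KO against WT, and 21% and 73% for siTfap4 against siNeg. Small changes were thus mostly missed in the simulation. The real comparisons called more genes and the list has its own range of levels, so these rates need not hold for it. Alternatives used DESeq2 1.42.0, limma-voom (limma 3.58.1), RLE factors, the legacy quasi-likelihood fit (added after seeing the data), other filters, the 4 libraries of a comparison alone, the replicate number as a block, a lowess correction (span 0.3) on GC percent over the final 100 bases of each transcript, and each library left out (the remaining one is assumed to vary as other groups do). Named genes were the called genes of the list in full, the largest change in a role without one, and up to 4 called genes (or the 2 most abundant) of each list of other pathway genes. The list, the other lists and the tests were chosen with earlier results of these data known. Promoters and microRNAs are from RefSeq (GRCm38.p6). P-values set a difference between groups against the spread between duplicates, which is estimated over all 4 groups and moderated across genes.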

Additional observations from a re-analysis of the deposited data

How the results depend on the processing

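With 2 libraries per group the calls depend on single libraries. In KO against WT cells the count of the 32 genes called ran from 0 to 7 over the 8 leave-outs, against 6 with all libraries. In siTfap4 against siNeg cells it ran from 2 to 7 against 7, and for the difference between the comparisons from 4 to 10 against 9. Over all tested genes the counts ran from 610 to 1528, from 499 to 2987 and from 1127 to 2766, and at a threshold of 0.1 the siPOOL comparison called 3528 genes in place of 2334. The other alternatives kept each count of the 32 genes within 1.5 times. With the replicate block it was 5, 6 and 8, losing Fdps in KO against WT, Fasn (with the further genes Mbtps2, Abca1 and Abcg1) in siTfap4 against siNeg and Dhcr7 in the difference; same-numbered libraries deviated together with a correlation of -0.0613 in the untreated and 0.126 in the siPOOL set, so the numbers are not shown to pair them. Values of single genes were compared only where a gene was called under some setting. Of these 868 values under an alternative, 714 kept their side of the threshold, 131 lost and 23 gained a call, and none changed direction. The 64 results of listed genes called under no setting are left out, and direction did change among them. Insig2 in siTfap4 against siNeg went from -0.09 to 0.48 with the correction for base composition. Leave-outs test fewer libraries; other causes were not tested.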
